A study of Mus musculus with 6 samples.

Results

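Constitutive OCT4 regions without NANOG are genomic intervals listed as bound by OCT4 in Esrrb-GFP high, medium and negative mouse ESCs. None of these populations had them listed as bound by NANOG. They were selected on binding itself: an interval was a member when the same coordinates stood in all 3 OCT4 lists and in no NANOG list. This gave 4166 members among the 23767 distinct intervals of the 6 lists, 17.5% of all intervals. Membership is therefore a description and was not tested. The lists hold coordinates and no signal, so no value can be given for how far members lay from the calling threshold.

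The cells were E14Tg2a ESCs, a mouse embryonic stem cell line, with a destabilised GFP reporter placed at *Esrrb* (E-GFPd1, labelled Esrrb-2a-GFPd-IBIH), and all groups shared this genotype and culture in LIF and foetal calf serum. Fixed cells were sorted by GFP into the top 10% of the distribution (high), the 15% directly above the negative gate (medium) and cells without GFP (negative). OCT4 was precipitated with a goat polyclonal antibody and NANOG with a rabbit polyclonal antibody, with 1 library for each factor and population, each made from 3 pooled ChIPs. Spread between replicates is therefore not known, p-values between populations were not computed, and the 95% intervals given here cover counting error over regions, which are not replicates. The line is 1 reporter line, and the fractions report *Esrrb* transcription, not every cell's ESRRB protein. Regions came from peaks called in the datasets and joined where they overlapped. A peak counted as lost in a population only where less than 50% of its highest depth-normalised signal remained. Absence from a list therefore does not mean absence of binding. Read totals are not in the lists and depth is unknown.

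OCT4 is a POU-domain transcription factor that is required for pluripotency. It contacts DNA through a bipartite domain that reads an octamer, often beside a SOX2 site in a composite Oct-Sox element, and it also binds as a homodimer on palindromic elements. NANOG, a homeodomain protein, and ESRRB, an orphan nuclear receptor, share many OCT4-bound enhancers in naive ESCs, and both are lost before OCT4 when ESCs leave the naive state.

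The sequences of members that carry OCT4 motifs show what these elements look like. The 8 members shown first lie within 20 kb of a gene of the fixed lists and contain an exact octamer or an Oct-Sox match with at most 1 mismatch. Sequences are the plus strand of mm9, read 5′ to 3′, and capitals mark the octamer (ATGCAAAT, or ATTTGCAT on the other strand) or the Oct-Sox match. The Pax6 interval overlaps an annotated untranslated exon and 30 bases around its octamer are shown.
Sall1 intron, chr8:91564512-91564571: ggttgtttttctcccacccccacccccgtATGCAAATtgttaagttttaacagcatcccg
Esrrb intron, chr12:87849472-87849691: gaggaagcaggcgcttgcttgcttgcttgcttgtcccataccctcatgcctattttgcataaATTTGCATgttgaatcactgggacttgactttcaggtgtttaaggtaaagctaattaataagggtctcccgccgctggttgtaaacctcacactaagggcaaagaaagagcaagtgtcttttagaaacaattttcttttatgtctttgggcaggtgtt
Fgfr2 intron, chr7:140074232-140074311: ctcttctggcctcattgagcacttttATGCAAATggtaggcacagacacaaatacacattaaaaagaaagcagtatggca
Fgfr2 intron, chr7:140292252-140292311: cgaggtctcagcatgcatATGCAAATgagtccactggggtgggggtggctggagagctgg
Pax6 exon, chr2:105515584-105515613: gcgagcggtgcATTTGCATgttgcggagtg
Cdx2 upstream, chr5:148118952-148119151: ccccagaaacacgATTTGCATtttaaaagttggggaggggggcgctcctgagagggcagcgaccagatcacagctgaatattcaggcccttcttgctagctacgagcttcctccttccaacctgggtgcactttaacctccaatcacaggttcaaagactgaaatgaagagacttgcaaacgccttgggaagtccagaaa
Meis2 intron, chr2:115695772-115695971: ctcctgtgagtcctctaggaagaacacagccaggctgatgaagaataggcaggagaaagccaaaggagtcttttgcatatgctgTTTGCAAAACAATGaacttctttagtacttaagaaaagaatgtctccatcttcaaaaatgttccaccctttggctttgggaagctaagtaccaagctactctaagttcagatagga
Hoxb1 upstream, chr11:96226852-96226911: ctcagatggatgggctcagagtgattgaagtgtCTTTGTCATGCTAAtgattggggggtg
Of these 8 members, 6 carried the octamer and 2, at *Meis2* and *Hoxb1*, carried the composite element with 1 mismatch. The Fgfr2 sequence at chr7:140292252-140292311 has ATGCAT directly before its octamer, the arrangement of a palindromic OCT element. Both Fgfr2 labels follow an annotated gene span of 3009 kb. In printed order, these members lay 240761 and 22751 bp from the nearest annotated start site. For them the gene is named for orientation only.

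The other pair of sequences holds the most central Oct-Sox matches without mismatch among the remaining members of at most 300 bp, of which 17 had such a match.
Clca3 gene, chr3:144680952-144681011: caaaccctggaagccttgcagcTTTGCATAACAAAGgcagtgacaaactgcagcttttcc
365787 bp from Tbx3, chr5:119754832-119754891: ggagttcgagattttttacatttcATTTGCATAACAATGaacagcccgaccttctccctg
Both read on the minus strand, with the octamer part before the SOX part in the plus-strand text. In the latter the composite element also completes a full octamer. Its nearest protein-coding gene, *Tbx3*, encodes a T-box factor of the naive state, and at this distance the gene is named for orientation only.

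Members made up 4166 of the 5718 regions with OCT4 in all 3 populations, 72.9% (95% Wilson interval 71.7 to 74.0). They were 33.5% of the OCT4 list of Esrrb-GFP high cells, 28.8% of that of medium cells and 40.2% of that of negative cells. Of the 1552 constitutive OCT4 regions with NANOG, 813 had it in high and medium cells, 648 in high cells alone, 43 in all 3 populations, 27 in medium cells alone, 13 in high and negative cells, 6 in medium and negative cells and 2 in negative cells alone. Among the 14092 OCT4 regions without NANOG, members were 29.6% (28.8 to 30.3), the largest of the 7 OCT4 patterns, ahead of the 2484 regions with OCT4 in high and medium cells only. These counts follow from the calls that define the members.

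**Figure D1:**
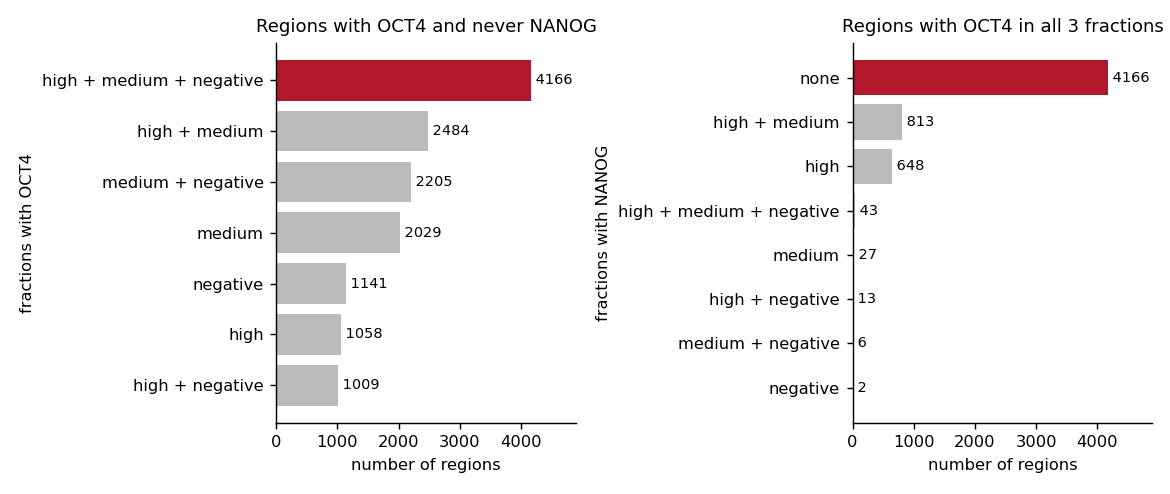
Number of regions (horizontal axis) by the populations in which they were listed (vertical axis). Left, regions with OCT4 and never NANOG, by OCT4 pattern. Right, regions with OCT4 in all 3 populations, by NANOG pattern. Red bars are the same 4166 members in both panels, and grey bars are the other patterns.

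Members were compared with 3 other classes of region: the 1552 constitutive OCT4 regions with NANOG, the 2484 regions with OCT4 in high and medium cells only and never NANOG (here called high-medium regions), and the 1058 regions with OCT4 in high cells only and never NANOG (high-only regions). Differences are members minus the other class in percentage points, with 95% Newcombe intervals, and a difference is called higher or lower where its interval excludes 0.

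Members were narrow. Their median width was 100 bp (interquartile range 60 to 160), they spanned from 40 to 900 bp, and together they covered 492360 bp. The narrowest width of 40 bp was found for 621 members, and 154 members were wider than 300 bp. Constitutive regions with NANOG had a median width of 180 bp, high-medium regions 80 bp and high-only regions 60 bp. A width is that of the peaks of all libraries joined together, so it depends in part on the number of libraries with a peak and was treated as a covariate and not as a result.

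They were spread over all chromosomes. On the 19 autosomes, members were from 21.7% of OCT4 regions on chromosome 6 to 24.5% on chromosome 4, with interval bounds that overlapped. Members per Mb ranged from 0.998 on chromosome 14 to 2.32 on chromosome 11, with a median of 1.64. Chromosome X held 75 members, or 0.450 per Mb, below every autosome, while members were 22.0% (17.9 to 26.7) of its OCT4 regions, within the range of the autosomes. E14Tg2a cells are male, and chromosome copy number and binding cannot be told apart in this density. Chromosome Y held 1 member.

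Most members lay away from promoters, and yet they lay at promoters more often than each of the other classes. By the position of the centre, 2361 members (56.7%) were between genes, 1619 (38.9%) in introns and 186 (4.46%) in exons. A transcription start site lay within 1 kb of 491 members, 11.8% (10.8 to 12.8), against 6.12% of constitutive regions with NANOG (difference 5.67 points, 4.06 to 7.15), 8.21% of high-medium regions (3.57 points, 2.09 to 5.01) and 9.45% of high-only regions (2.33 points, 0.201 to 4.25). Over all 23767 regions the share was 8.90%. The difference from high-only regions was not distinguishable from 0 when only protein-coding genes were counted (1.09 points, -0.923 to 2.88), and at 5 kb the differences from high-medium and high-only regions both included 0. Members were also spread through the distal range, with 434 members over 100 kb from a start site, and their median distance was 14306 bp, against 21118 bp for constitutive regions with NANOG and 13887 bp for high-medium regions.

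**Figure D2:**
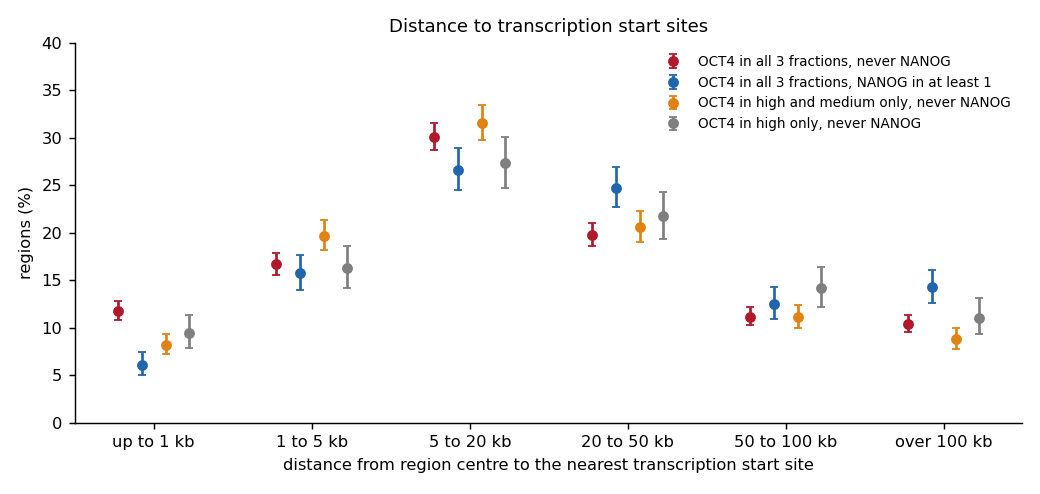
Share of regions (vertical axis, percent) by distance from the region centre to the nearest transcription start site (horizontal axis, 6 bins), for members (red) and 3 other classes of OCT4 region. Points are shares and bars 95% Wilson intervals. In the bin up to 1 kb members stand at 11.8% and constitutive regions with NANOG at 6.12%, and from 20 to 50 kb the order is the opposite, 19.8% against 24.7%.

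Base composition placed members between the other classes. In windows of 100 bp on either side of the centre, median GC content was 48.5% (interquartile range 45.5 to 52.0). At least 50% GC was found in 41.3% of members, which was higher than in constitutive regions with NANOG (29.8%, difference 11.4 points, 8.67 to 14.1) and lower than in high-medium regions (46.7%, difference -5.48 points, -7.94 to -3.01). Against high-only regions (37.0%) the difference of 4.31 points (1.00 to 7.53) was not kept for regions of at least 100 bp (2.86 points, -3.18 to 8.67) or in windows of 250 bp on either side (2.55 points, -0.501 to 5.48). CpG-rich windows, with at least 50% GC and an observed over expected CpG ratio of at least 0.6, were uncommon: 4.27% of members, against 1.10% of constitutive regions with NANOG (difference 3.18 points, 2.31 to 3.95), 3.94% of high-medium and 3.21% of high-only regions, and both latter differences included 0. Within the members, 13.8% (11.1 to 17.2) of those within 1 kb of a start site were CpG-rich and 2.99% (2.49 to 3.60) of those farther away. CpG-rich windows were thus more common among promoter members, though most promoter members had none.

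An exact octamer, ATGCAAAT on either strand, was present in 514 member windows, 12.3% (11.4 to 13.4), against 9.86% of constitutive regions with NANOG, 8.29% of high-medium, 7.94% of high-only and 7.86% of all regions. The Oct-Sox element, with up to 2 mismatches, was present in 932 member windows, 22.4% (21.1 to 23.7), against 19.8%, 14.9%, 12.8% and 12.9% of the same classes. The palindrome, ATGCAT directly followed by ATGCAT with up to 2 mismatches, was present in 217 member windows, 5.21%, against 2.84% of constitutive regions with NANOG, 3.66% of high-medium and 4.82% of high-only regions, and the difference from the last (0.388 points, -1.21 to 1.73) included 0. At least 1 of these 3 elements was present in 1422 members (34.1%), leaving 2744 (65.9%) without any in the window. The 3 elements overlap in sequence: 149 of the 514 members with an octamer also had an Oct-Sox match, and 69 of the 217 with a palindrome also had an octamer.

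Against regions that lost OCT4 with *Esrrb* and had no NANOG, the higher shares of the octamer and the Oct-Sox element in members were stable. The octamer was higher in members by 4.05 points (2.54 to 5.50) than in high-medium and by 4.40 points (2.37 to 6.20) than in high-only regions, and the Oct-Sox element by 7.52 points (5.61 to 9.38) and 9.61 points (7.13 to 11.9). These 4 differences stayed above 0 under all alternatives tried, including stratification by GC content and width. Members needed an OCT4 call in all 3 populations and these other classes in fewer. Intervals of the minimum width of 40 bp made up 14.9% of members, 22.5% of high-medium and 32.0% of high-only regions. The lists hold no scores, so the part of call strength in these differences was not tested. Against constitutive regions with NANOG the higher shares were not stable. The octamer was higher by 2.48 points (0.626 to 4.21) and the Oct-Sox element by 2.59 points (0.190 to 4.89), but the octamer difference was -1.32 points (-4.23 to 1.60) with 1 mismatch allowed and 1.90 points (-0.172 to 3.85) in windows of 250 bp on either side, and the Oct-Sox difference was -3.55 points (-6.46 to -0.640) with up to 3 mismatches and -0.0170 points (-2.57 to 2.45) in windows of 250 bp on either side. Close matches near the centre were thus more frequent in members than in constitutive regions with NANOG, and looser or more distant matches were not. With GC content and width stratified, the differences were 3.95 points (1.93 to 5.97) for the octamer and 3.91 points (1.32 to 6.50) for the Oct-Sox element.

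The motifs lay at the region centres. The Oct-Sox element was centred within 20 bp of the middle of 11.6% of members and in a mean of 0.175% per 20 bp bin from 300 to 500 bp away, a ratio of 66.4. The ratio was 36.1 in constitutive regions with NANOG, 38.6 in high-medium and 24.2 in high-only regions. For the octamer, 5.18% of members had one within 20 bp of the middle, 3.67% from 20 to 40 bp and 1.01% from 80 to 100 bp, over a flank level of 0.305% (ratio 17.0, against 9.63, 9.73 and 7.81). The palindrome fell from 2.42% to 0.307%. Members were narrower than constitutive regions with NANOG (median 100 against 180 bp), and the part of width in these ratios was not tested. Where a CATTGT and an ATGCNAAT stood on the same strand with 0 to 20 bases between them, 14 of 19 pairs in members and 3 of 5 in constitutive regions with NANOG had exactly 1 base between, the arrangement of the composite element. Repeated octamers were rare: 478 members had 1, 30 had 2, 4 had 3 and 2 had 5.

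**Figure D3:**
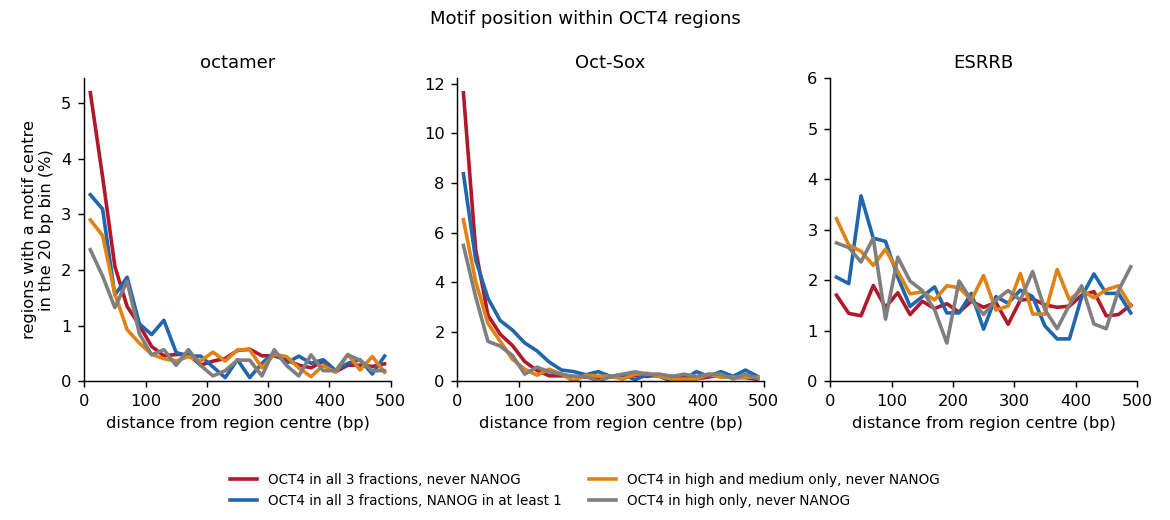
Share of regions with a motif centred in each 20 bp bin (vertical axis, percent) by distance from the region centre (horizontal axis, bp), for the octamer, the Oct-Sox element with up to 2 mismatches and the ESRRB motif with up to 1 mismatch. In the innermost bin the red line of the members is the highest for octamer (5.18%) and Oct-Sox (11.6%) and the lowest for ESRRB (1.70%), where it is near its flank level of 1.53%.

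The ESRRB motif showed the opposite pattern. TCAAGGTCA, the extended nuclear receptor half-site of ESRRB, with up to 1 mismatch, was present in 295 member windows, 7.08% (6.34 to 7.90), against 12.1% of constitutive regions with NANOG, 12.0% of high-medium, 10.9% of high-only and 11.2% of all regions. The differences were -5.03 points (-6.90 to -3.30), -4.96 points (-6.49 to -3.48) and -3.79 points (-5.94 to -1.87), and all 3 stayed below 0 under the 8 alternatives tried for each. In members the motif was nearly flat around the centre, 1.70% within 20 bp against 1.53% per bin in the flanks (ratio 1.11), while the ratio was 1.38 in constitutive regions with NANOG, 1.86 in high-medium and 1.73 in high-only regions. KLF motifs (GGGCGTGG or GGGTGTGG, sites of the naive factors KLF2, KLF4 and KLF5) were found in 3.79% of members and were less frequent than in high-medium regions (difference -1.36 points, -2.44 to -0.344). Their differences from constitutive regions with NANOG (0.700 points, -0.422 to 1.68) and from high-only regions (-1.03 points, -2.59 to 0.268) included 0.

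A list of 16 other motifs, the palindrome among them, was searched in the same windows. Of the 16, 5 were higher in members than in constitutive regions with NANOG, 3 were lower and 8 had intervals that included 0. Lower were ZIC CAGCAGG (10.8% against 17.8%, difference -7.01 points, -9.18 to -4.94), SOX CCATTGT (5.28% against 9.79%, -4.51 points, -6.22 to -2.96) and OTX GGATTA (8.14% against 10.1%, -1.91 points, -3.70 to -0.267). Higher, besides the palindrome (2.37 points, 1.23 to 3.39), were GC-box GGGCGG (2.75 points, 1.32 to 4.05), NFY CCAATCA (1.72 points, 0.576 to 2.74), E-box CACGTG (1.39 points, 0.537 to 2.12) and YY1 AAGATGGC (0.797 points, 0.236 to 1.25). Against high-medium regions 3 of 16 were higher (palindrome, NFY and the GATA motif, spelled AGATAA), none was lower and 13 included 0. Against high-only regions ZIC alone was higher (2.55 points, 0.530 to 4.35), none was lower and 15 included 0. The motifs TEAD GGAATG, STAT TTCCNGGAA, GRHL AACCNGTT, AP-1 TGANTCA, FOX TGTTTAC, TCF ATCAAAG and CTCF (CCACNAG directly followed by GTGGCAG, up to 2 mismatches) included 0 in all 3 comparisons. Each motif was searched on both strands. Among all 23767 regions the shares were 13.7% for ZIC, 7.19% for SOX, 7.95% for OTX, 6.36% for the GC-box, 4.09% for NFY, 2.16% for the E-box, 0.968% for YY1, 9.01% for GATA, 3.25% for the palindrome and 4.17% for KLF, and from 0.791% (STAT) to 15.7% (TEAD) for the other 7. A match is a description of sequence and not a measured site.

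**Figure D4:**
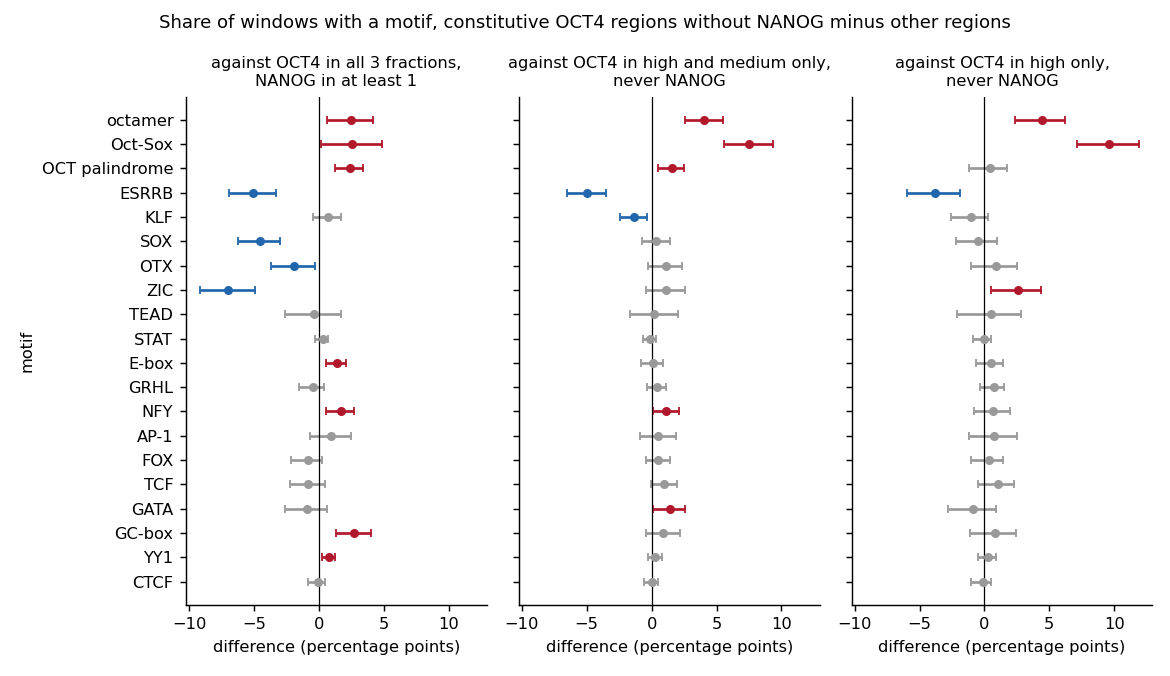
Difference in the share of windows with each of 20 motifs, members minus the other class (horizontal axis, percentage points, with 95% Newcombe intervals), in 3 comparisons. Red points lie above 0, blue points below 0, and grey intervals include 0. The octamer and Oct-Sox are red and ESRRB is blue in all 3 panels.

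Promoter members differed from distal ones in motif content. An Oct-Sox match was present in 15.5% (12.6 to 18.9) of members within 1 kb of a start site and in 23.3% (21.9 to 24.7) of the others, while the octamer was present in 11.4% (8.89 to 14.5) and 12.5% (11.4 to 13.6). The GC-box was present in 14.9% (12.0 to 18.3) and 6.83% (6.06 to 7.69). For NFY the shares were 5.91% (4.14 to 8.35) and 4.60% (3.97 to 5.33). For YY1 they were 0.815% (0.317 to 2.08) and 1.31% (0.987 to 1.73), and for both motifs the intervals overlapped. The composite element was thus more common in distal members and the octamer alone was not distinguishably so.

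Words of 8 bases were also ranked without a motif list, on the odd-numbered chromosomes and X, and the 5 most over-represented and the 5 most under-represented words were then counted on the even-numbered chromosomes, which had no part in the choice. Against constitutive regions with NANOG, all 5 words chosen as higher stayed higher and all 5 chosen as lower stayed lower, in 1885 members and 732 other regions. Higher were TATGCAAA (10.1% against 6.83%, difference 3.30 points, 0.874 to 5.47) and ATATGCAA (4.93% against 3.01%). TATGCAAA can stand in the composite Oct-Sox element. The first A of ATATGCAA departs from that element, and its run ATATGCA stands in the palindrome. Also higher were the purine repeats GAGAGAGA (6.47% against 2.46%, 4.01 points, 2.28 to 5.51), AGAGAGAG and GAGAGAGG. Lower were TTGCAAAT (4.30% against 8.06%, -3.76 points, -6.11 to -1.73), GTTGCAAA (2.71% against 4.78%), GCAAATTA (2.81% against 4.51%), CAAATTAG (2.28% against 4.64%) and the SOX-like CTTTGTTT (4.35% against 8.20%, -3.85 points, -6.21 to -1.80). The higher OCT words read ATGCAA, and the lower ones read TTGCAAA or run on into ATTA, a homeodomain core.

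Against high-medium regions, 3 of 5 words chosen as higher stayed higher on 1885 members and 1109 other regions: the octamer ATGCAAAT itself (12.6% against 8.48%, 4.15 points, 1.87 to 6.33), TTATGCAA (5.78% against 3.16%, 2.63 points, 1.08 to 4.07) and the palindromic ATGCGCAT (4.62% against 2.62%, 2.00 points, 0.593 to 3.31). Of the 5 chosen as lower, 3 stayed lower: CAAGGTCA, the core of the ESRRB motif (2.07% against 4.87%, -2.80 points, -4.33 to -1.46), and the purine repeats GAGAGAGA (6.47% against 11.0%, -4.53 points, -6.76 to -2.44) and AGAGAGAG. Purine repeats were thus more frequent in members than in constitutive regions with NANOG and less frequent than in high-medium regions. Repeats are not marked in the genome sequence used and were not examined.

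NANOG regions seldom lay beside members. A region from any NANOG list lay within 1 kb of 293 members, 7.03% (6.30 to 7.85), against 12.4% (11.2 to 13.8) of high-medium and 13.8% (11.9 to 16.0) of high-only regions, and within 500 bp of 204 members. Near members, 285 had a NANOG region of high cells within 1 kb, 153 one of medium cells and 7 one of negative cells, in the order of the list lengths of 9425, 4729 and 286. The median distance to a NANOG region was 57580 bp for members, 41460 bp for high-medium and 45330 bp for high-only regions. A total of 3962 members had none within 500 bp.

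Few members lay within 5 kb of another member. Another member lay within 5 kb of 364 members, 8.74% (7.92 to 9.63), an OCT4 region of high cells lost in negative cells within 5 kb of 416 (9.99%), and an OCT4 region present in negative but not high cells within 5 kb of 333 (7.99%). Any other region at all lay within 5 kb of 1406 members (33.8%) and within 20 kb of 2346 (56.3%), and the median distance to the nearest one was 14690 bp. The spacing of the other classes was not compared. Joined at 5 kb, members formed 3802 single regions, 159 pairs, 14 triplets and 1 group of 4. That group lay at chr11:96153132-96161311, across *Hoxb6*, in the HoxB cluster of homeobox genes that pattern the body axis. The shortest triplets lay at chr4:135173752-135174031, 44207 bp from *Grhl3*, at chr10:98816052-98816511, 66645 bp from *B530045E10Rik*, at chr6:29581612-29582831, 21725 bp from *Tnpo3*, and at chr16:90298432-90300271, 13762 bp from *Scaf4*. The triplets on chromosomes 4 and 10 span 280 and 460 bp and are neighbouring intervals of a single locus.

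Near genes, a member lay within 20 kb of the body of 3378 of 22380 protein-coding genes, 15.1%. A gene within that distance was found for 2806 members (67.4%). Of the 3378 genes, 2760 had 1 member and 114 had 3 or more. For 1326 of them (39.3%), every OCT4 region within 20 kb was a member, and 2009 (59.5%) had no NANOG region of any list within 20 kb. Longer genes offer more space for a region, and the share of 15.1% is given beside the gene lists. An OCT4 region of any class lay within 20 kb of 9134 of the 22380 genes, 40.8%. It lay near 3 of 3 core, 13 of 14 naive and 21 of 24 formative and primed genes. Among germ layer, signalling and chromatin genes the counts were 11 of 19, 16 of 19 and 15 of 16. Whether member shares above 15.1% go beyond this density of OCT4 regions was not tested. The lists were chosen with earlier results of these data known, and their counts are descriptions.

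Of the 3 core pluripotency genes, 1 had a member within 20 kb, 0 within 5 kb and 2 within 50 kb. *Sox2*, the partner of OCT4 on composite elements, had 2 members, both downstream of the gene, at chr3:34563332-34563391 and chr3:34566992-34567191, 14304 and 18034 bp from its start, among 6 OCT4 regions within 20 kb. *Pou5f1*, which encodes OCT4, and *Nanog* had 5 and 4 OCT4 regions and no member. All 3 genes had a constitutive OCT4 region with NANOG within 20 kb.

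Of 14 naive genes, 4 had a member (28.6%, against 15.1% of all protein-coding genes), and each had 1. At *Esrrb* it lay in an intron at chr12:87849472-87849691 and carried the octamer shown above, and it was 1 of 7 OCT4 regions at the gene, 4 of which were lost in negative cells. *Dppa5a*, an RNA-binding protein gene of pluripotent cells, had a member 1408 bp upstream among 12 OCT4 regions. *Nr5a2*, an orphan nuclear receptor gene, had an exonic member 12975 bp from a start site, and *Dppa3*, which encodes a maternal chromatin factor, had one 17816 bp upstream. *Klf2*, *Klf4*, *Klf5*, *Tbx3*, *Zfp42*, *Prdm14*, *Tet2*, *Fgf4* and *Tfcp2l1* had OCT4 regions and no member, and *Nr0b1* had no OCT4 region. High-medium regions, by comparison, lay near 8 of the 14 genes (57.1%), against 9.67% of all protein-coding genes, and constitutive OCT4 regions with NANOG near 5 (35.7%), against 5.03%.

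Of 24 formative and primed genes, 7 had a member (29.2%), against 15.1% of all protein-coding genes. Constitutive OCT4 regions with NANOG lay near 8 (33.3%, against 5.03%). High-medium regions, which lost OCT4 in negative cells, also lay near 7 (29.2%, against 9.67%). *Sall1*, a zinc finger repressor gene, had an intronic member 3519 bp from its start, with the octamer shown above, and a further one 9111 bp upstream. *Etv5*, an ETS factor gene downstream of FGF, had 2 intronic members among 10 OCT4 regions, and *Lin28a*, an RNA-binding regulator of let-7, had 2 members among 6. *Lin28b*, its paralogue, had an intronic member 615 bp from an annotated start site, and *Sall2* one 2485 bp upstream. At both of these genes the member was the only OCT4 region and no NANOG region lay within 20 kb. *Fgf15* and *Lef1*, which encode a growth factor and a WNT-responsive factor, had 1 member each, 7745 and 16968 bp from a start site. *Otx2*, *Fgf5*, *Dnmt3b*, *Pou3f1*, *Foxd3* and *Zic2* had OCT4 regions and no member.

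Of 19 annotated germ layer genes, 7 had a member (36.8%, against 15.1% of all protein-coding genes), with 16 members in all. *Pax6*, a regulator of eye and neural fate, had 4 members among 9 OCT4 regions, 12, 971, 1380 and 7491 bp from annotated start sites. *Meis2*, a TALE homeobox gene, had 4 among 13 OCT4 regions and no NANOG region within 20 kb, with 1 member 467 bp upstream. *Six3*, a forebrain homeobox gene, had 3 members among 8 OCT4 regions, 31, 466 and 4011 bp from start sites. *Meis1* had 2 members, *Cdx2*, the trophectoderm and posterior homeobox gene, had 1 at 206 bp, and *Hoxb1* had 1 at 184 bp with the Oct-Sox match shown above. *T*, the mesoderm gene brachyury, had 1 member 19876 bp upstream. Constitutive OCT4 regions with NANOG lay near 4 of the 19 genes (21.1%, against 5.03% of all protein-coding genes) and high-medium regions near 2 (10.5%, against 9.67%). Of the listed genes, *Mixl1*, *Mesp1*, *Sox17*, *Gata4*, *Gata6*, *Hand1*, *Lhx1* and *Isl1* had no OCT4 region within 20 kb.

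Of 19 signalling genes, 8 had a member (42.1%), and 8 had a constitutive OCT4 region with NANOG, against 15.1% and 5.03% of all protein-coding genes. High-medium regions lay near 5 of the 19 genes (26.3%, against 9.67%). *Fgfr2*, an FGF receptor gene, had 13 members, but its annotated span is 3009 kb. Most of these members lay far from its annotated start sites, the nearest at 3188 bp. The count describes that annotated span and does not assign the members to the gene. *Lefty1*, an inhibitor of NODAL, had an intronic member 10 bp from an annotated start site. The feedback inhibitors of ERK signalling *Dusp6* and *Spry2* had 1 upstream member each, 1833 and 3846 bp from the start, and *Spry4* had 2 members. *Id2*, a BMP target, had a member 2825 bp from its start, *Socs3*, a feedback inhibitor of LIF signalling, one 4731 bp upstream, and *Tdgf1*, the NODAL co-receptor gene, one 14210 bp upstream. *Nodal*, *Lefty2*, *Lifr* and *Il6st* had OCT4 regions and no member.

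Of 16 chromatin genes, 3 had a member (18.8%), near the level of all genes. *Ezh2*, the catalytic subunit gene of PRC2, had 2 members, 6762 and 13142 bp upstream, and these were its only OCT4 regions. *Suz12*, a further PRC2 subunit gene, had 2 among 4 OCT4 regions, and *Chd7*, a remodeller gene, had 1 intronic member. Constitutive OCT4 regions with NANOG lay near 10 of these 16 genes (62.5%), against 5.03% of all protein-coding genes.

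**Figure D5:**
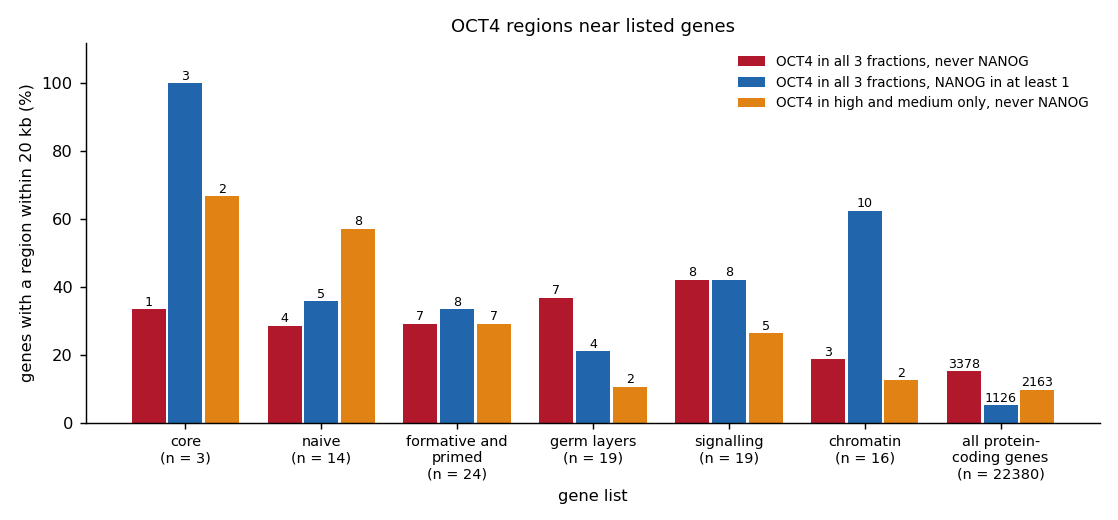
Share of genes with a region within 20 kb of the gene body (vertical axis, percent) for 6 gene lists and all protein-coding genes (horizontal axis, with the number of genes), for members (red), constitutive OCT4 regions with NANOG (blue) and high-medium regions (orange). Numbers above the bars are genes. Members were near 36.8% of germ layer genes and 15.1% of all genes.

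By number of members, *Fgfr2* (13) was followed by *Gm20388* (12), with annotated spans of 3009 and 4435 kb. *Mtus2* (7 members among 9 OCT4 regions) and *Magi2* (6 among 14) are 358.7 and 1478 kb long. The remaining 6 of the 10 leading genes are short homeobox genes, with 5 members each. Ties were ordered by the shorter gene, so any longer genes with 5 members were left out of these 10. *Hoxb5*, *Hoxb6*, *Hoxb7* and *Hoxb8* shared the same 5 members at HoxB, from chr11:96145552-96145591 to chr11:96161252-96161311, 4 of them joined in the largest group above and 1 with an octamer. *Dlx5* and *Dlx6*, a divergent pair of craniofacial and limb homeobox genes, shared 5 members among 11 OCT4 regions, including 1 at chr6:6832232-6832431, 247 bp from a start of *Dlx5*, and 1 at chr6:6809592-6809971 with an Oct-Sox match of 2 mismatches. No NANOG region lay within 20 kb of *Dlx5*, *Dlx6*, *Hoxb7* or *Hoxb8*.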

How the data were processed

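OCT4 and NANOG ChIP-Seq was available for 6 samples, 1 library per factor and sorted population, grouped by their labels. Per the labels and the study's methods, the authors aligned reads with Bowtie to mm9, called peaks with SISSRs in GeneProf and joined peaks that overlapped between datasets. A called peak counted as lost in a population only where less than 50% of its highest depth-normalised signal remained. The deposited files hold coordinates in base pairs (chromosome, start, end) and no score or depth; the threshold and the joined widths bear on every count here.

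Lists were matched by exact interval; no interval overlapped another (0 of 23767). Starts are printed counted from 1. The members and gene lists were chosen with earlier results of these data known. Windows of 100 bp on either side of the centre were read from NCBIM37 and genes from GENCODE vM1 (37310 genes). Shares have 95% Wilson intervals and differences Newcombe intervals. Named genes are those of 6 fixed lists with a member within 20 kb (at most 8 per list), the 10 genes with most members and the 5 largest groups; genes named as having none, and other families in the closing section, were chosen after their values were seen. Alternatives were other windows, mismatches, distances, widths, autosomes, strict NANOG distance, one region per group, and Mantel-Haenszel strata of GC content and width. Intervals came from statsmodels 0.14.6 and scipy 1.17.1, sequences from pysam 0.24.0 and plots from matplotlib 3.10.9 (Python 3.11.15). Motif search, intervals and word ranking were tested on simulated data.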

Additional observations from a re-analysis of the deposited data

How the results depend on the processing

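No paired analysis was possible because each factor and population has 1 library. Depth is unknown and limits every absence from a list. Of 135 differences recomputed under alternatives, 121 kept their direction and their side of 0. With windows of 250 bp on either side, differences against constitutive regions with NANOG became 1.90 points for the octamer and -0.0170 for Oct-Sox, both including 0, and 1.70 (above 0) for KLF, and against high-only regions -2.08 (below 0) for KLF and 2.55 (including 0) for GC content. With looser matching, the octamer (1 mismatch) and Oct-Sox (3 mismatches) differences against constitutive regions with NANOG reversed to -1.32 and -3.55, and KLF (1 mismatch) against high-only regions to 0.141. With windows of 50 bp, KLF against high-medium regions was -0.584 and included 0. The start site difference at 5 kb was 0.594 points against high-medium and 2.78 against high-only regions, and against the latter 1.09 for protein-coding genes and 3.76 for regions of at least 100 bp, which also moved GC content to 2.86; all included 0. The cause of these changes was not tested.

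Shares that depend on a distance moved with it. Genes with a member were 9.07% at 5 kb, 24.9% at 50 kb and 10.3% when only the closest gene was taken. Members with a NANOG region nearby were 4.90% at 500 bp and 13.7% at 5 kb, with another member 4.32% at 1 kb and 18.5% at 20 kb, and with a lost OCT4 region 5.38% and 21.3%. At 5 kb, 0 core and 1 chromatin gene had a member, and at 50 kb 2 core, 7 naive and 7 chromatin genes. Without members within 500 bp of a NANOG region 3962 remained, and on autosomes 4090.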

Other observations

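Homeobox clusters were counted after the values above had been seen, and no test was made. Within 20 kb of the 40 annotated *Hoxa* to *Hoxd* genes lay 72 OCT4 regions, of which 15 (20.8%) were constitutive regions without NANOG, near their 22.8% share of all OCT4 regions, and 1 was a constitutive region with NANOG. The HoxB cluster held 7 of them among 26 OCT4 regions, HoxD 4 among 16, HoxA 2 among 10 and HoxC 2 among 20. The 6 *Dlx* genes had 19 OCT4 regions within 20 kb, of which 6 were constitutive without NANOG, and no NANOG region.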
